A study of Mus musculus with 12 samples.

Results

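The expression of 10 markers of endothelial cells, the cells that line blood vessels, was followed through 12 RNA libraries that the labels call tumor-associated macrophages. The 10 genes were fixed by name (Vwf, Cdh5, Kdr, Flt1, Tek, Tie1, Emcn, Eng, Plvap and Pecam1) and are 10 of the 34989 genes summed from the deposited transcript tables. Each of the 4 groups holds 3 libraries. The combination group (CD40 agonist + CSF1Ri) received both agents, the CD40 agonist group 10 intraperitoneal treatments with the antibody FGK4.5 (10 mg/kg, 1 every 3 days, or fewer where a tumor reached the endpoint), the CSF1Ri group PLX6134 in chow at 600 mg/kg, and the Control group normal chow. PBS is named as the vehicle without a statement of which mice received it. All mice carried an inducible Cre recombinase under the tyrosinase promoter (Tyr::CreER), which acts in melanocytes, and bore locally induced melanomas, while a separate label gives the genotype as wild type. Treatment began 30 days after induction, at a total volume under 100 mm3, and ran for 30 days or until a tumor reached 2 cm3. Each library pools at least 3 tumors that were digested and freed of red and dead cells, and no sorting gate is given in the sources used here.

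Endothelial cells are joined by the cadherin of Cdh5 and by Pecam1, store von Willebrand factor (Vwf) for clotting, and are guided by VEGF through the receptors of Kdr and Flt1 and by angiopoietins through the receptor Tek with its partner Tie1. Eng is a co-receptor for ligands of the TGF-beta family, Plvap forms the diaphragms of vessel pores and Emcn is a surface sialomucin of veins and capillaries. In tumors these genes mark the vessels. Several of them are known outside the endothelium: Pecam1, Flt1 and Eng are carried by monocytes and macrophages, and Vwf and Pecam1 by megakaryocytes and platelets. In libraries from bulk RNA, fewer cells of a type and less RNA per cell cannot be told apart.

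The libraries held 26316328 to 39818657 estimated counts. Lyz2, a lysozyme gene of macrophages, averaged 18970 TPM (the deposited share of all transcripts, which corrects for transcript length and can be compared between genes), and 14 macrophage and monocyte markers summed to 14690 to 37320 TPM per library. The 10 endothelial genes together summed to 28.2 to 57.8 TPM. Libraries that stand apart on principal components of log2 CPM (counts relative to the library total after TMM scaling) were combination replicate 2 and CSF1Ri replicate 3 on the second component and CD40 agonist replicate 1 on the third. Values without these libraries are given beside the changes of the members that they moved most.

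By mean TPM the 10 genes fell into 4 at or above 1 TPM and 6 under it. Pecam1 averaged 26.0 ± 6.48 TPM over the 12 libraries (SD, n = 12), Vwf 6.93 ± 4.11 TPM, Flt1 3.40 ± 1.29 TPM and Eng 2.96 ± 1.14 TPM. These 4 genes had at least 10 counts in every library and held 91.7% to 99.4% of the summed TPM of all 10. The other 6 averaged under 1 TPM: Kdr at 0.738, Tie1 at 0.412, Plvap at 0.277, Cdh5 at 0.179, Emcn at 0.0319 and Tek at 0.00698. Kdr, low per length on a main transcript of 5924 bases, still had 1310 counts in all and at least 10 in 10 libraries. Plvap, Cdh5, Emcn and Tek, which in a tumor are read mainly as genes of vessels, were thus at the bottom of the order. Cdh5 was listed at 0 counts in 4 libraries, Emcn in 6, Plvap in 8 and Tek in 11. In the order of levels Pecam1 was separate from the rest, its lowest library (18.4 TPM) lying above the highest of Vwf (16.2 TPM). Flt1 and Eng overlapped, as did Tie1, Plvap and Cdh5.

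**Figure D1:**
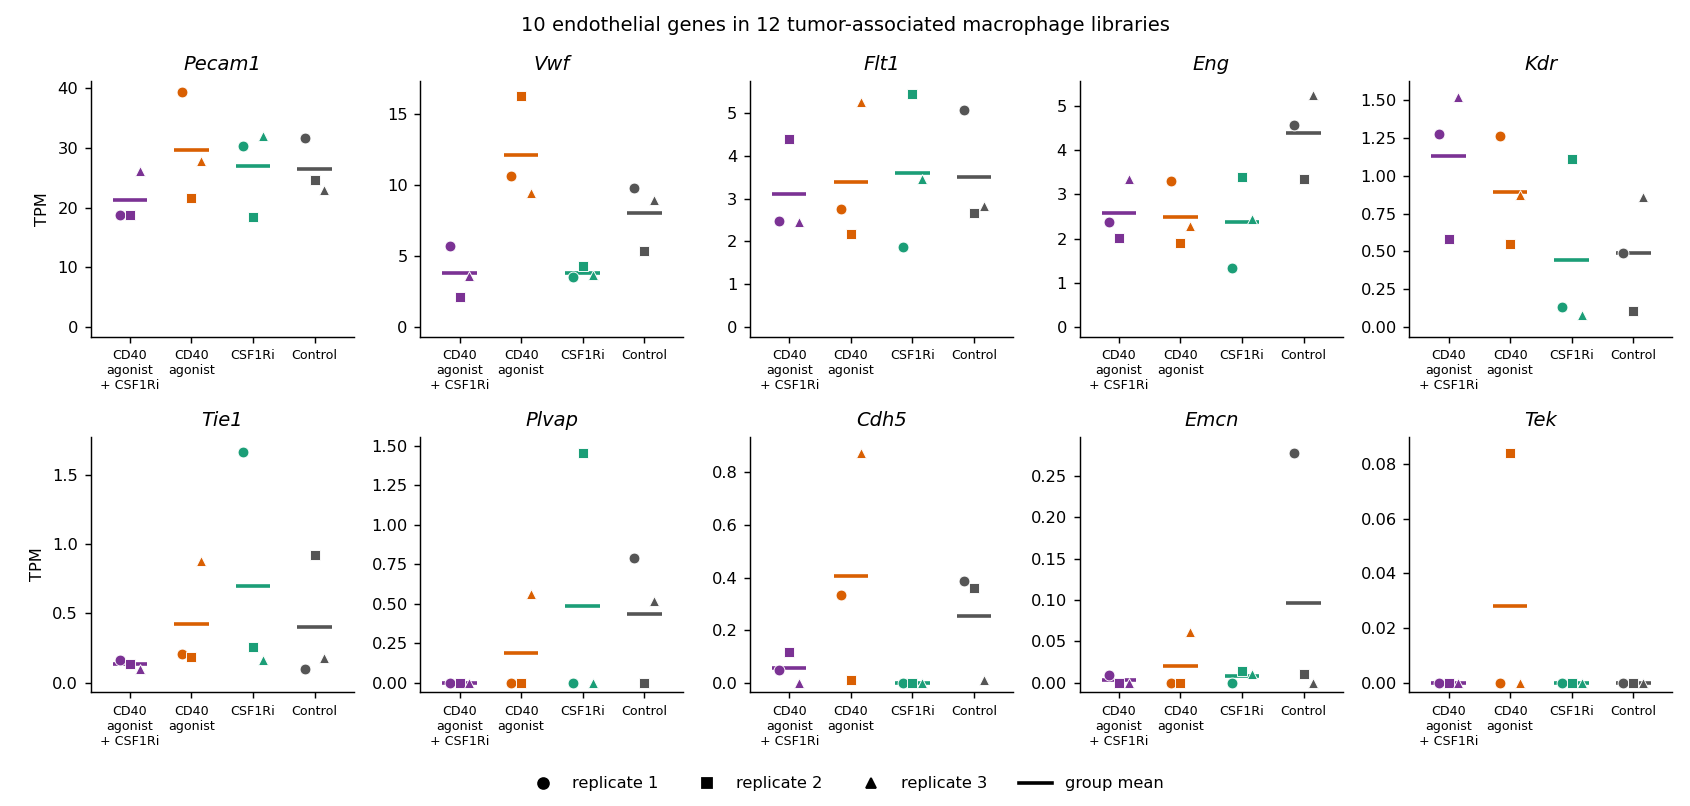
Deposited TPM of each of the 10 endothelial genes (vertical axes, linear, one scale per gene) in the 3 libraries of each group (horizontal axis), with symbols for the replicate and a bar at the group mean. Vwf lies between 9.43 and 16.2 TPM with the CD40 agonist and between 2.14 and 5.69 TPM with the combination, while Tek is above 0 in 1 library only.

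None of the 8 genes that passed the filter on low counts was called in any of 7 comparisons by edgeR's quasi-likelihood test with Benjamini-Hochberg adjustment over 16027 genes (call at an adjusted p below 0.05). Emcn, with 10 counts over all 12 libraries, and Tek, with 8, did not pass the filter. The count was 0 of 8 for the combination against the CD40 agonist (0.0% of all genes tested), 0 of 8 against CSF1Ri (1.94%) and 0 of 8 against Control (0.774%). It was likewise 0 of 8 for the CD40 agonist against Control (0.0%), for CSF1Ri against Control (0.0125%), for the interaction of both agents (0.0%) and for any difference among the 4 groups (1.2%). At an unadjusted p below 0.05 the CD40 agonist against Control had 0 members and each of the other comparisons 1: Vwf for the combination against the CD40 agonist, the combination against Control and any difference, and Cdh5 for the combination against CSF1Ri, CSF1Ri against Control and the interaction. DESeq2 called 1 member, Vwf, for the combination against the CD40 agonist (1.72% of all genes tested by DESeq2) and for any difference (10.4%). It called 0 members for the combination against CSF1Ri (9.26%) and against Control (5.82%), for the CD40 agonist against Control (1.22%), for CSF1Ri against Control (2.55%) and for the interaction (1.07%). On the counts limma voom called 0 members in the 7 comparisons.

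The fitted log2 changes of the 8 tested genes, beside those of all genes, were spread to both sides. For the combination against Control 6 of 8 were negative with a median of -0.78, against 49.8% and a median of 0.002 over all genes. For the combination against the CD40 agonist 5 of 8 were negative (median -0.87, all genes 50.1% and -0.001), and for the combination against CSF1Ri 4 of 8 (median 0.12, all genes 48.6% and 0.02). For the CD40 agonist against Control 3 of 8 were negative (median 0.18, all genes 49.1% and 0.011) and for CSF1Ri against Control 5 of 8 (median -0.06, all genes 51.3% and -0.015). For the interaction 4 of 8 were negative (median -0.14, all genes 48.7% and 0.017). Single libraries moved these medians. With 1 library left out, the median ranged from -1.04 to -0.22 for the combination against Control, where the value nearest 0 was without Control replicate 2 and where 4 of 8 were negative without Control replicate 1. For the combination against the CD40 agonist it ranged from -1.20 to -0.10, at -0.10 with 4 of 8 negative without CD40 agonist replicate 1 and at -0.25 without CD40 agonist replicate 3. The sign of the median turned in the other 4: it ranged from -0.05 to 0.35 for the combination against CSF1Ri, from -0.23 to 0.45 for the CD40 agonist against Control, from -0.63 to 0.02 for CSF1Ri against Control and from -0.33 to 0.61 for the interaction. With all 12 libraries the medians were the same with genes at 0 in a group set to their bound instead of their fitted value. Such genes lie at an end of the order either way, so the median could not show a difference. Comparisons that share the Control or the combination libraries are not independent of each other.

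Members whose groups did not overlap are given per comparison and scale, beside the share of all genes. On the CPM scale 2 of the 8 genes, Vwf and Tie1, were lower in every combination library than in every CD40 agonist library (13.5% of all genes did not overlap there, in either direction), and 1, Eng, was higher in every combination library than in every CSF1Ri library (21.9%). Vwf was lower in every combination library than in every Control library (22.3%), and Cdh5 lower in every CSF1Ri library than in every Control library (15.8%). For Tie1 and Cdh5 the separations rest on few counts. Before scaling, Tie1 had 14.3 counts in combination replicate 1 and 12.1 in CD40 agonist replicate 2, so its counts overlapped. Cdh5 had 1 count in Control replicate 3. No member separated the CD40 agonist from Control in CPM (17.1%). On the TPM scale the pairs differ in part: Vwf and Tie1 again separated the combination from the CD40 agonist (13.9%), Vwf and Cdh5 separated CSF1Ri from Control (15.5%), and Eng separated the combination (23.3%) and the CD40 agonist (17.7%) from Control, lower in each case. For Eng these separations rest in part on few counts of short transcripts in Control, given below. No member separated the combination from CSF1Ri in TPM (23.5%).

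**Figure D2:**
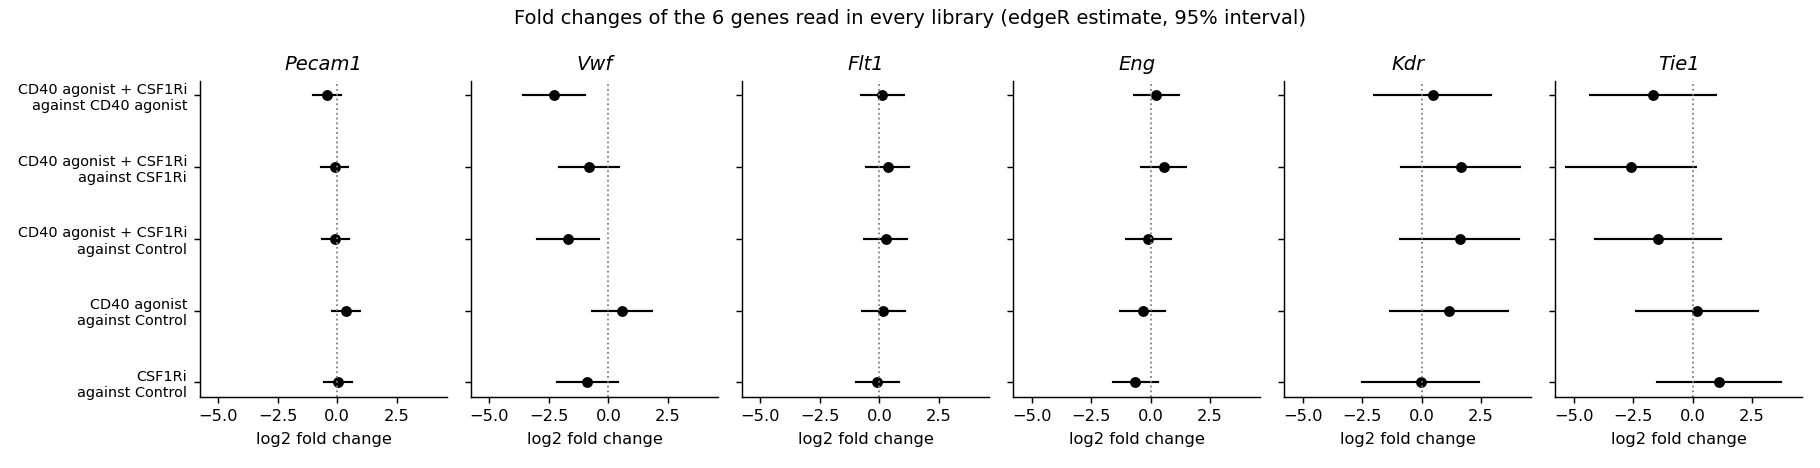
Log2 fold changes of the 6 genes with counts in every library (one panel each) in the 5 comparisons between groups (vertical axis), as edgeR estimates (points) with 95% intervals (lines). For Vwf the interval runs from -3.60 to -0.96 for the combination against the CD40 agonist, and for Flt1 and Eng every interval includes 0.

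Among the genes of cell adhesion, Pecam1 (ENSMUSG00000020717, GRCm38 chromosome 11, 106654217 to 106750628, minus strand), which encodes a homophilic adhesion molecule of endothelium, platelets and leukocytes, was the best read. It was listed at 18.8, 18.8 and 26.1 TPM in combination replicates 1 to 3, at 39.3, 21.6 and 27.7 TPM in the CD40 agonist libraries, at 30.4, 18.4 and 32.1 TPM in the CSF1Ri libraries and at 31.7, 24.7 and 22.9 TPM in Control. All 4 groups overlapped, and the highest library, CD40 agonist replicate 1, is one that stands apart. The log2 fold change was -0.44 ± 0.26 for the combination against the CD40 agonist (SE, 95% interval -1.03 to 0.14, edgeR adjusted p = 0.686). Against Control it was -0.08 ± 0.26 for the combination (interval -0.66 to 0.51, adjusted p = 0.934), 0.37 ± 0.26 for the CD40 agonist (-0.21 to 0.95, adjusted p = 0.814) and 0.03 ± 0.26 for CSF1Ri (-0.55 to 0.62, adjusted p = 0.996). Without CD40 agonist replicate 1 the change was -0.23 for the combination against the CD40 agonist and 0.14 for the CD40 agonist against Control. All 3 intervals against Control lie within 1 log2 unit of 0.

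Much of the Pecam1 signal came from a transcript that codes for no protein. A transcript of a single exon of 2142 bases (ENSMUST00000184424), which the annotation types as a retained intron, held 34.9% of the gene's counts over the 12 libraries, and 10.6% of its bases lie in exons of coding transcripts. Its share of Pecam1 TPM was 67.8%, 25.1% and 42.1% in the combination libraries, 30.2%, 25.5% and 33.5% in the CD40 agonist libraries, 33.3%, 50.9% and 63.6% in the CSF1Ri libraries and 49.6%, 78.1% and 40.0% in Control. The share was lowest on average in the CD40 agonist libraries and varied widely within the other groups. The remaining Pecam1 transcripts summed to 11.7 ± 4.97 TPM in the combination, 20.66 ± 6.002 TPM in the CD40 agonist libraries, 13.6 ± 5.88 TPM in the CSF1Ri libraries and 11.7 ± 5.57 TPM in Control (SD, n = 3 each). These remaining transcripts, singled out after their values were seen, ran from 6.04 to 15.1 TPM in the combination, from 16.1 to 27.5 TPM in the CD40 agonist libraries, from 9.01 to 20.25 TPM in the CSF1Ri libraries and from 5.40 to 15.95 TPM in Control. Summed over protein-coding transcripts alone, an alternative added after the transcripts were seen, the log2 fold change of Pecam1 for the CD40 agonist against Control was 0.85 (edgeR adjusted p = 0.745). With 3 libraries a group an exact two-sided permutation test cannot go below p = 0.1, so shares of transcripts were described and not tested.

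Cdh5 (ENSMUSG00000031871, chromosome 8, 104101625 to 104144511, plus strand) encodes VE-cadherin, the cadherin of endothelial junctions. It had 6, 12 and 0 estimated counts in combination replicates 1 to 3, 35, 1 and 11 in the CD40 agonist libraries, 0, 0 and 0 in the CSF1Ri libraries and 37, 34 and 1 in Control. CSF1Ri was thus the group with no Cdh5 count, while single libraries of the other groups also had 0 or 1. With summed counts and a floor of 3 counts for a group at 0, CSF1Ri lay at least 23.0-fold below Control. By the same floor CSF1Ri lay at least 5.15-fold below the combination and 15.1-fold below the CD40 agonist. These bounds cover counting error only and leave out the spread between libraries. The 95% interval of the fitted log2 fold change, which includes that spread, was -12.9 to -2.25 for CSF1Ri against Control. For the combination against CSF1Ri it was 0.46 to 10.8. Against a group at 0 the fitted size depends on the setting, and these intervals do not bound the change. Over the alternatives the value ran from -8.16 to -0.31 for CSF1Ri against Control and from 0.08 to 6.18 for the combination against CSF1Ri. The edgeR adjusted p was 0.336 for CSF1Ri against Control and 0.237 for the combination against CSF1Ri, and no call followed. For CSF1Ri against Control the adjusted p ranged from 0.295 to 0.75 over the alternatives that gave one, those without 1 library among them, and DESeq2 gave none. For the combination against the CD40 agonist Cdh5 had a log2 fold change of -1.29 ± 1.62 (SE, edgeR adjusted p = 0.902), and of 0.02 without CD40 agonist replicate 1, which holds 35 of that group's counts. Without combination replicate 2, which holds 12 counts, it was -2.46.

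Vwf (ENSMUSG00000001930, chromosome 6, 125546774 to 125686679, plus strand), the clotting glycoprotein of endothelium and platelets, was the member nearest to a call. It was listed at 5.69, 2.14 and 3.597 TPM in combination replicates 1 to 3, at 10.6, 16.2 and 9.43 TPM in the CD40 agonist libraries, at 3.53, 4.27 and 3.64 TPM in the CSF1Ri libraries and at 9.80, 5.34 and 8.94 TPM in Control. All CD40 agonist libraries were above all combination libraries, a separation that 13.9% of all genes showed in TPM in one or the other direction. In CPM the values were 4.27, 1.56 and 1.92 in the combination, 14.8, 13.6 and 9.36 in the CD40 agonist libraries, 2.48, 2.40 and 8.83 in the CSF1Ri libraries and 10.5, 7.22 and 7.53 in Control. CSF1Ri replicate 3 is within the range of Control in CPM and below it in TPM, and combination replicate 1 within the range of Control in TPM and below it in CPM.

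The log2 fold change of Vwf was -2.28 ± 0.60 for the combination against the CD40 agonist (SE, 95% interval -3.60 to -0.96, edgeR adjusted p = 0.292). It was -1.70 ± 0.59 for the combination against Control (interval -2.997 to -0.408, adjusted p = 0.214) and -0.82 ± 0.58 for the combination against CSF1Ri (-2.10 to 0.45, adjusted p = 0.49). The other comparisons were not called either: CSF1Ri against Control (-0.88 ± 0.58, adjusted p = 0.693), the CD40 agonist against Control (0.58 ± 0.57, adjusted p = 0.886) and the interaction (-1.40 ± 0.81, adjusted p = 0.709). DESeq2 called Vwf lower in the combination than with the CD40 agonist (log2 fold change -2.28, adjusted p = 0.0107) and different among the 4 groups (adjusted p = 0.0119). Over the 24 alternatives the adjusted p for the combination against the CD40 agonist ranged from 0.0107 to 0.845, and was at least 0.142 in all but DESeq2. Without CSF1Ri replicate 3 the change for CSF1Ri against Control was -1.81, that for the combination against CSF1Ri 0.10 and the interaction -0.48. Without combination replicate 2 and CSF1Ri replicate 3 together, Vwf differed by -2.02 for the combination against the CD40 agonist (adjusted p = 0.219) and by 0.34 for the combination against CSF1Ri. In log2(TPM + 1) the combination was at -0.94 against Control and at -0.07 against CSF1Ri.

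A minority of the Vwf counts was assigned to the full-length transcript in the deposited estimates. This transcript (ENSMUST00000112254), with 2813 codons in 52 exons, held 23.9% of the gene's counts. A transcript that the annotation types as a target of nonsense-mediated decay (ENSMUST00000147101) held 36.6% and a processed transcript (ENSMUST00000146264) 14.3%. Both of these lie in the 3′ part of the gene. Of their bases, 100.0% and 84.0% lie in exons of other coding transcripts. Reads there do not tell the transcripts apart, so the split is an estimate. The processed transcript has 456 bases and averaged 4.44 TPM. It made up 10.3% of Vwf TPM in CSF1Ri replicate 3, from 2.78 counts, and 49.2% to 85.7% in the other libraries. The Vwf values in TPM thus rest largely on few counts of a short transcript. The full-length transcript had 70.5, 1.41 and 2.75 counts in the combination libraries, 149, 87.1 and 60.4 in the CD40 agonist libraries, 2.82, 0 and 132 in the CSF1Ri libraries and 115, 18.1 and 2.76 in Control. The CD40 agonist libraries thus ran from 60.4 to 149 counts, and 1 library of each other group lay within that range. Summed over protein-coding transcripts alone, Vwf differed by -2.34 for the combination against the CD40 agonist (adjusted p = 0.845).

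Markers of platelets and their precursors were measured beside Vwf. The 10 platelet and megakaryocyte markers summed to 185, 17.5 and 77.9 TPM in combination replicates 1 to 3, 152, 199 and 202.8 TPM in the CD40 agonist libraries, 33.6, 32.7 and 38.2 TPM in the CSF1Ri libraries and 133, 132 and 149 TPM in Control. All CSF1Ri libraries were below all CD40 agonist and Control libraries for this sum, and the combination overlapped with each group. Single markers did not all follow the sum: for CSF1Ri against Control 4 of the 10 had a positive and 6 a negative log2 fold change, with 0 called. The best read was Pf4, a platelet chemokine that macrophages also make, with a mean of 87.8 TPM over the 12 libraries and of 13.4 TPM in the CSF1Ri libraries and 100.4 TPM in Control. Pf4 alone was at 114, 180 and 185 TPM in the CD40 agonist libraries and at 106, 90.7 and 105 TPM in Control. In the CSF1Ri libraries it was at 8.97, 9.37 and 22.0 TPM. The sum thus largely follows this 1 gene, and groups were not compared for the sum without it. Itga2b, the platelet integrin, averaged 9.34 TPM, and was at 12.9 TPM on average in the CSF1Ri libraries and 6.71 TPM in Control. Ppbp, a platelet chemokine precursor, averaged 8.74 TPM. Tubb1, the tubulin of platelets, was listed at 1.04 to 2.58 TPM in Control and at no more than 0.152 TPM elsewhere, and was chosen after its values were seen. The part of these cells in the Vwf values was not tested.

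**Figure D3:**
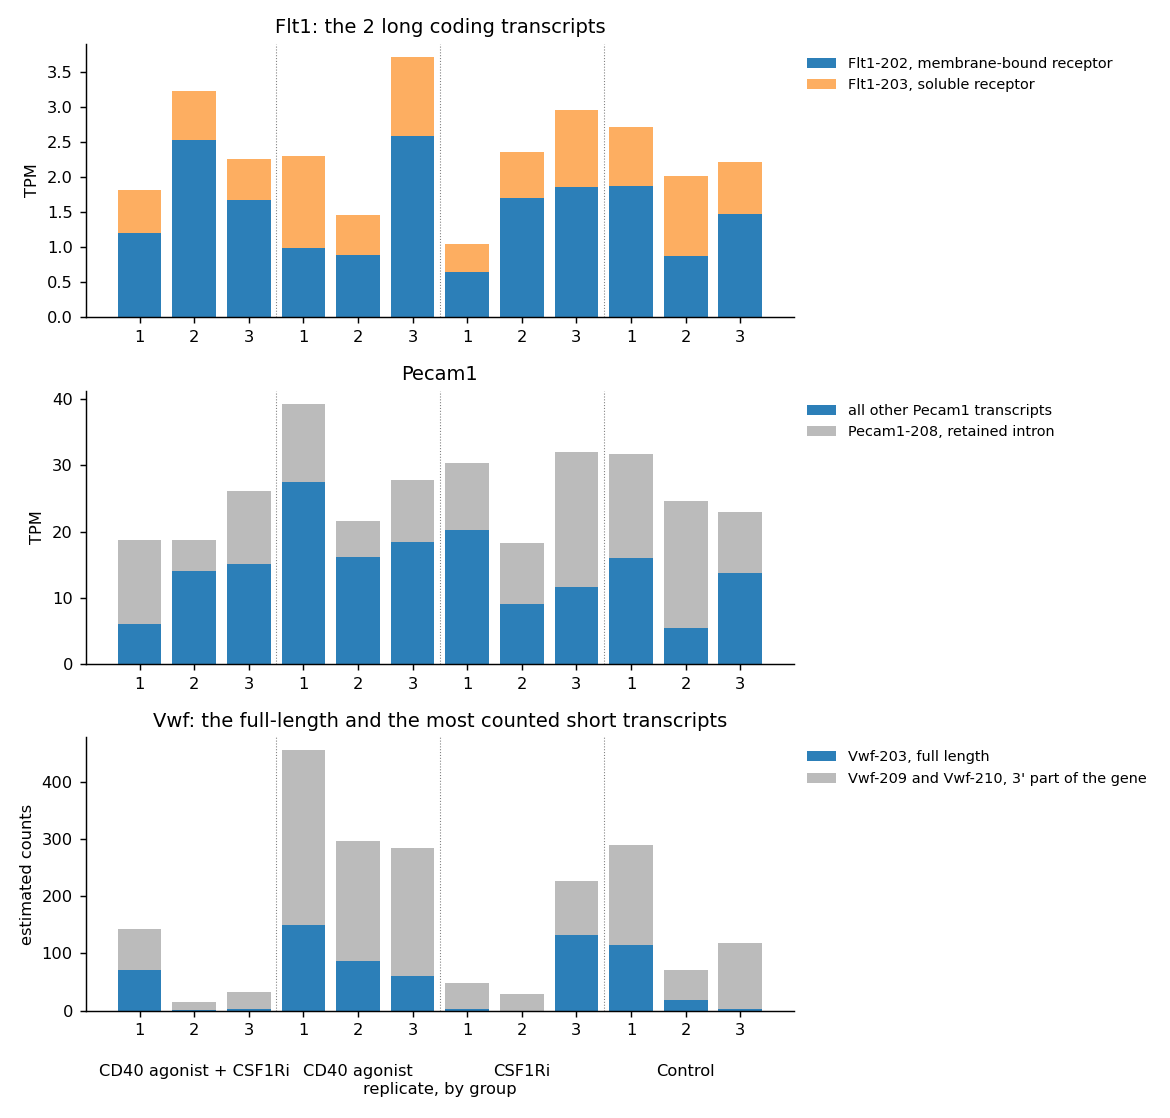
Transcripts of Flt1 and Pecam1 in TPM (top and middle) and of Vwf in estimated counts (bottom), stacked per library (horizontal axis, replicates 1 to 3 of each group, vertical lines between groups). The retained-intron transcript runs from 25.1% to 78.1% of Pecam1 TPM, the soluble form from 21.6% to 57.1% of the 2 Flt1 forms, and the full-length Vwf transcript from 0 to 149 counts.

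Of the VEGF receptors, Flt1 (ENSMUSG00000029648, chromosome 5, 147561604 to 147726011, minus strand) encodes VEGFR1, which binds VEGF-A, VEGF-B and placental growth factor and is carried by monocytes and macrophages as well as endothelium. It was listed at 2.48, 4.40 and 2.47 TPM in combination replicates 1 to 3, at 2.76, 2.17 and 5.26 TPM in the CD40 agonist libraries, at 1.87, 5.45 and 3.45 TPM in the CSF1Ri libraries and at 5.06, 2.66 and 2.82 TPM in Control. Each group held both low and high libraries, and all 4 overlapped. The log2 fold change against Control was 0.27 ± 0.41 for the combination (SE, 95% interval -0.63 to 1.18, edgeR adjusted p = 0.816), 0.16 ± 0.41 for the CD40 agonist (-0.74 to 1.06, adjusted p = 0.968) and -0.09 ± 0.41 for CSF1Ri (-0.99 to 0.82, adjusted p = 0.991). Without combination replicate 2, which stands apart, the combination was at -0.06 against Control, and without CSF1Ri replicate 3 CSF1Ri was at -0.34. The signs also turn with the scale: in TPM with a pseudocount of 1 the combination was at -0.13 and the CD40 agonist at -0.06 against Control.

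Flt1 makes a receptor anchored in the membrane and a shorter, soluble form that holds VEGF away from it. Both had counts in the deposited estimates. The transcript of the membrane form (ENSMUST00000031653) has 1333 codons in 30 exons and held 61.8% of the gene's counts, and that of the soluble form (ENSMUST00000110529) has 688 codons in 13 exons and held 30.3%. Their coding sequences are identical over 657 whole codons and then part within a codon, after which the soluble form runs on without a splice through 31 codons of its own to a stop. The sequences below, from GENCODE M21 transcripts on GRCm38 (minus strand, 5′ to 3′), are shown because this point is what tells the 2 forms apart. The last 30 shared bases are in lower case and the bases that differ in capitals, to the stop codon of the soluble form and over the same length in the membrane form.
Flt1 soluble form (chr5:147639130-147639254): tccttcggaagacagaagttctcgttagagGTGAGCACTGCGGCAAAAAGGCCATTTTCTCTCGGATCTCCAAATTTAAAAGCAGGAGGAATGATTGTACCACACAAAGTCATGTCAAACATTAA
Flt1 membrane form (spliced, between chr5:147634429 and 147639254): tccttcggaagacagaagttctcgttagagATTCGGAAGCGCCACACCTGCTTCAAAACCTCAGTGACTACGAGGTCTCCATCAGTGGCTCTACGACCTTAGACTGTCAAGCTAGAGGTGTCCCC

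The soluble form made up 33.4%, 21.6% and 25.7% of the TPM of both forms in combination replicates 1 to 3, 57.1%, 39.3% and 30.2% in the CD40 agonist libraries, 37.7%, 28.1% and 37.2% in the CSF1Ri libraries and 31.3%, 56.5% and 33.3% in Control. The mean was 26.9% ± 5.99 in the combination, 42.2% ± 13.7 under the CD40 agonist, 34.3% ± 5.40 under CSF1Ri and 40.4% ± 14.01 in Control (SD, n = 3 each). The combination had the lowest mean and overlapped with each other group. Of the bases of the membrane and soluble transcripts, 32.3% and 35.4% lie in exons of other coding transcripts, so the split is an estimate. The soluble form runs on without a splice, where reads from unspliced RNA cannot be told apart from it. A retained-intron transcript of Flt1 held 7.5% of the gene's counts. The membrane form was the more abundant in TPM in every library except CD40 agonist replicate 1 and Control replicate 2.

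Kdr (ENSMUSG00000062960, chromosome 5, 75932827 to 75978458, minus strand) encodes VEGFR2, the main signalling receptor for VEGF-A on endothelium. It was listed at 1.28, 0.584 and 1.52 TPM in combination replicates 1 to 3, at 1.26, 0.551 and 0.873 TPM in the CD40 agonist libraries, at 0.131, 1.11 and 0.083 TPM in the CSF1Ri libraries and at 0.489, 0.109 and 0.863 TPM in Control. The highest CSF1Ri library (1.11 TPM) and the highest Control library (0.863 TPM) lay within the ranges of both groups that received the antibody. The log2 fold change was 1.60 ± 1.14 for the combination against Control (95% interval -0.90 to 4.10, edgeR adjusted p = 0.556), 1.14 ± 1.12 for the CD40 agonist (-1.34 to 3.61, adjusted p = 0.886) and -0.04 ± 1.12 for CSF1Ri (-2.49 to 2.42, adjusted p = 1.0). For CSF1Ri single libraries moved the value: without CSF1Ri replicate 2 the change was -2.84, without CSF1Ri replicate 3, which stands apart, 0.48, and without Control replicate 3 it was 0.63. Without CD40 agonist replicate 1 the change for the CD40 agonist was 0.78, and without combination replicate 2 that for the combination was 1.89. Each of these intervals spans several log2 units, so that changes of several fold in Kdr were not detectable here.

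Of the genes of angiopoietin signalling, Tie1 (ENSMUSG00000033191, chromosome 4, 118471191 to 118490061, minus strand), an orphan receptor that modulates Tek, was read in all libraries at low counts. It had 14.3, 9.28 and 8.11 counts in combination replicates 1 to 3, 14.9, 12.1 and 66.4 in the CD40 agonist libraries, 133, 13.5 and 11.2 in the CSF1Ri libraries and 6.3, 62.4 and 10.3 in Control. A single library of each group except the combination was far above its partners. A processed transcript (ENSMUST00000153286) held 61.6% of its counts. The log2 fold change was -1.66 ± 1.21 for the combination against the CD40 agonist (edgeR adjusted p = 0.774), -2.57 ± 1.24 for the combination against CSF1Ri (adjusted p = 0.302) and 1.11 ± 1.18 for CSF1Ri against Control (adjusted p = 0.861). Without CSF1Ri replicate 1 CSF1Ri against Control stood at -0.97 and the combination against CSF1Ri at -0.50. Without CSF1Ri replicate 3 CSF1Ri against Control stood at 1.58 and the combination against CSF1Ri at -3.06. Tek (ENSMUSG00000006386, chromosome 4, 94739289 to 94874976, plus strand), the angiopoietin receptor TIE2, known also from a class of tumor monocytes, had 8 counts, all in CD40 agonist replicate 2. A library without a Tek count allows up to 0.0753 to 0.1125 CPM over the 11 libraries, from 3 counts of each total.

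The starts of Flt1, read in every library, and Tek, listed at 0 in 11 of 12, are shown as the contrast among the receptor genes. Promoter sequences from RefSeq (GRCm38.p6, 250 bases before to 50 after the start) were held for 6 of the 10 members. The letters GGAAG, a core that ETS factors bind, are in capitals on either strand (CTTCC on the other).
Flt1 (chr5:147725962-147726261, minus strand): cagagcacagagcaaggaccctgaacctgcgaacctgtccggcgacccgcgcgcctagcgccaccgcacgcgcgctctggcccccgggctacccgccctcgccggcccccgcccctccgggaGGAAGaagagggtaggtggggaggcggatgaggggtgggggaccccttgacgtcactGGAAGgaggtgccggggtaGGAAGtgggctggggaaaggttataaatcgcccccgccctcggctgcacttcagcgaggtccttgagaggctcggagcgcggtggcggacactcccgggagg
Tek (chr4:94739039-94739338, plus strand): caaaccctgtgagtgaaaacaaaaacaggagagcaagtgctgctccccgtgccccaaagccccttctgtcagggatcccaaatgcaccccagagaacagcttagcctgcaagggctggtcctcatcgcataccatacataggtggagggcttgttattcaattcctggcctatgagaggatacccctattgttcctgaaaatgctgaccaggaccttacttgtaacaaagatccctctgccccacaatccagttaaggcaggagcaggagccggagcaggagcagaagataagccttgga
Flt1 holds the letters 3 times and Tek 0 times. Tie1 holds them 7 times, Emcn and Eng 2 times each and Kdr 1 time, and 71.4% of all 32851 promoters searched hold them. TATAAA, searched on both strands, occurs in that of Flt1 and in 13.6% of all promoters.

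Eng (ENSMUSG00000026814, chromosome 2, 32646595 to 32682669, plus strand) encodes endoglin, the co-receptor of the TGF-beta family on proliferating endothelium and activated monocytes. It was listed at 2.39, 2.02 and 3.34 TPM in combination replicates 1 to 3, at 3.30, 1.91 and 2.28 TPM in the CD40 agonist libraries, at 1.33, 3.39 and 2.43 TPM in the CSF1Ri libraries and at 4.57, 3.35 and 5.26 TPM in Control. Control held the 2 highest libraries in TPM. In Control replicate 3, 38.8% of Eng TPM came from 20.1 counts of a retained-intron transcript of 611 bases. Another 23.6% there came from 3 counts of a transcript of 258 bases. In Control replicate 2, 36.8% came from 22.9 counts of a transcript of 935 bases. In CPM Control replicates 2 and 3 were at 5.60 and 5.19, within the range of the CD40 agonist libraries and below the combination libraries. The log2 fold change against Control was -0.10 ± 0.43 for the combination (95% interval -1.03 to 0.84, edgeR adjusted p = 0.95), -0.33 ± 0.43 for the CD40 agonist (-1.27 to 0.61, adjusted p = 0.924) and -0.65 ± 0.43 for CSF1Ri (-1.59 to 0.30, adjusted p = 0.698). In TPM with a pseudocount of 1 the change against Control was -0.59 for the combination, -0.63 for the CD40 agonist and -0.70 for CSF1Ri, none called. Without Control replicate 1, the library with the most Eng counts, the combination was at 0.32, the CD40 agonist at 0.09 and CSF1Ri at -0.24 against Control. Of the libraries that stand apart, leaving out CD40 agonist replicate 1 put the CD40 agonist at -0.56, leaving out combination replicate 2 put the combination at -0.01 and leaving out CSF1Ri replicate 3 put CSF1Ri at -0.87. Eng shares 61 exonic bases with Fpgs on the other strand (mean 2.48 TPM), and the libraries carry no strand, so reads there cannot be told apart.

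Plvap and Emcn, surface glycoproteins of endothelium, were barely read. Plvap (ENSMUSG00000034845, chromosome 8, 71497765 to 71511752, minus strand) had 0, 0 and 0 counts in combination replicates 1 to 3, 0, 0 and 26 in the CD40 agonist libraries, 0, 51 and 0 in the CSF1Ri libraries and 34, 0 and 20 in Control. Where Plvap was read at all it came at 20 counts or more, and otherwise at 0. Counts were then summed over each group, with a floor of 3 counts for the combination. By this floor the combination lay at least 20.1-fold below Control, 19.8-fold below CSF1Ri and 9.74-fold below the CD40 agonist. These bounds cover counting error only and leave out the spread between libraries. The fits, which include that spread, gave 95% intervals of the log2 fold change that all include 0. They were -14.9 to 0.55 against Control, -15.1 to 0.43 against CSF1Ri and -13.6 to 1.49 against the CD40 agonist. With the combination at 0 the fitted size depends on the setting, from -7.94 to -0.48 against Control over the alternatives. The edgeR adjusted p for the combination was 0.371 against Control, 0.300 against CSF1Ri and 0.663 against the CD40 agonist, and each of the other groups also held at least 1 library at 0. The counts of the CSF1Ri group all came from replicate 2 and those of the CD40 agonist group from replicate 3. Emcn (ENSMUSG00000054690, chromosome 3, 137341067 to 137432185, plus strand) had 1 count in the combination, 2 counts in the CD40 agonist group, 2 in the CSF1Ri group and 5 in Control, too few for a comparison.

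The 10 genes varied in different ways from library to library. Over the 12 libraries Pearson's r of log2 CPM between 2 members ranged from -0.73 (Tie1 with Eng) to 0.60 (Plvap with Emcn), with a median of 0.02 over the 45 pairs, of which 20 were below 0. Only Cdh5 with Eng (0.52) also reached 0.5, and Vwf was most like Pecam1 (0.43). The points share libraries and depth, and for Plvap, Emcn and Cdh5 they rest on few counts. Kdr and Flt1 were each most like Eng (0.36 and 0.44), Tek most like Vwf (0.36), and no member was like Tie1 (at most 0.02, with Pecam1). Outside the lists, the genes with the highest correlation with the mean log2 CPM of the 10 members were Sorbs3 (0.88), Usp12 (0.84), Ankrd53 (0.84), Gpihbp1 (0.83) and Upf2 (0.83). These are the highest of the correlations of all genes outside the lists that passed the filter, and the top of so many correlations over 12 libraries is high by chance as well.

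Other genes of vessels were taken from lists chosen with earlier results known. Of 24 other endothelial markers 17 passed the filter, of 11 endothelial transcription factors 5, of 16 ligands and co-receptors of the same receptors 14, and of 4 lymphatic markers 3. In each list 0 genes were called by edgeR, higher or lower, in any of the 7 comparisons. Icam2, an adhesion molecule of endothelium and leukocytes, averaged 34.7 TPM, Cd34, a sialomucin of vessels and progenitors, 5.85 TPM and Esam, a junction protein of endothelium and platelets, 4.19 TPM. Among transcription factors the highest were Fli1 (73.6 TPM), Gata2 (28.2 TPM) and Lmo2 (20.6 TPM), all shared with blood cells. Erg and Sox17, factors of endothelial identity, were named after their values were seen. Erg was listed at no more than 0.156 TPM, and Sox17 at 0 in all 12 libraries.

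Partners of the member receptors ranged from well read to unread. The best read were 3 genes. Nrp1, a VEGF co-receptor that macrophages also carry, averaged 30.6 TPM, Acvrl1, the receptor that works with endoglin, 15.6 TPM and Tgfb1, a ligand of the family, 15.5 TPM. At the other end Angpt1, the angiopoietin that activates Tek, averaged 0.779 TPM, and Gdf2, which encodes the endoglin ligand BMP9, was listed at 0 in all 12 libraries, both named after their values were seen. Pgf, the placental growth factor that binds VEGFR1, was listed at 17.4, 3.59 and 12.4 TPM in the combination, 8.87, 9.02 and 12.8 TPM in the CD40 agonist libraries, 53.8, 38.8 and 3.45 TPM in the CSF1Ri libraries and 5.54, 7.33 and 9.38 TPM in Control, and was named after its values were seen. CSF1Ri replicate 3, which stands apart, is its lowest library and the other CSF1Ri libraries its highest. Of the lymphatic markers Pdpn, which fibroblasts and macrophages can carry, averaged 18.6 TPM, Lyve1, also a macrophage gene, 2.81 TPM and Flt4, the receptor VEGFR3, 0.0447 TPM.

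**Figure D4:**
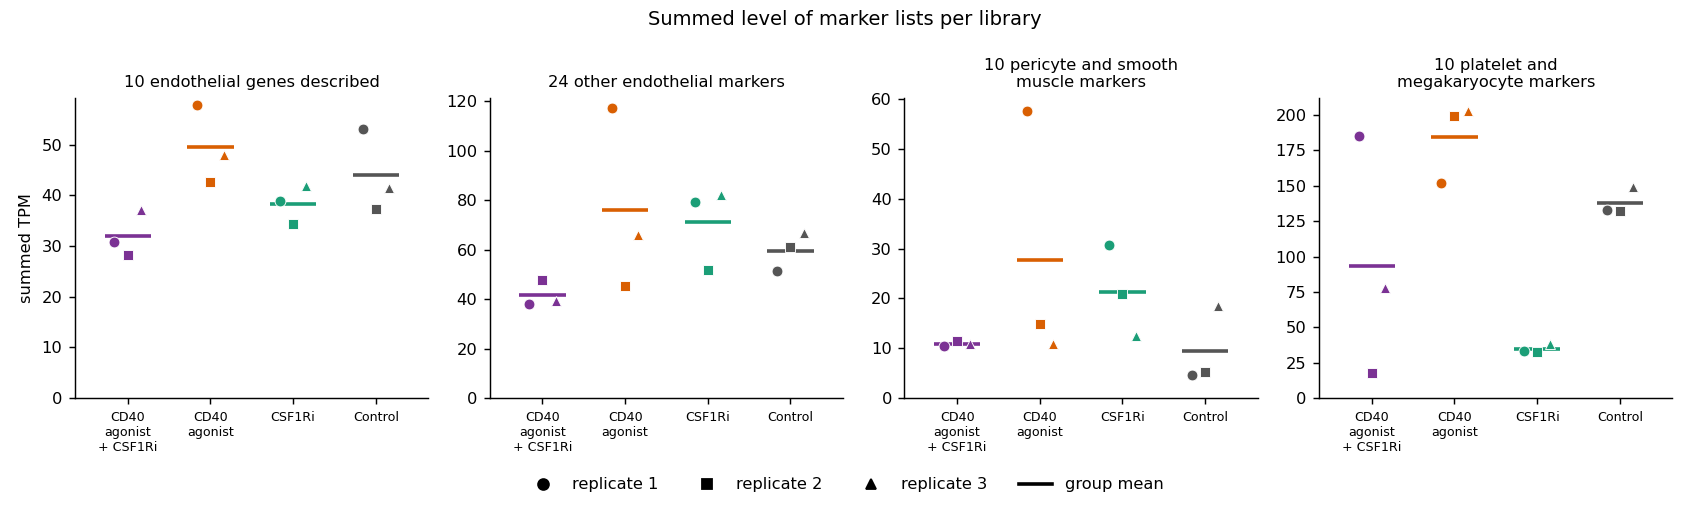
Summed TPM (vertical axes, from 0) of the 10 endothelial genes, 24 other endothelial markers, 10 pericyte and smooth muscle markers and 10 platelet and megakaryocyte markers in each library, by group (horizontal axis), with a bar at the group mean. CD40 agonist replicate 1 is the highest library for the first 3 lists, at 57.8, 117 and 57.6 TPM.

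CD40 agonist replicate 1 had the highest sums of the other endothelial and of the pericyte and smooth muscle markers. The 24 other endothelial markers summed to 117 TPM there and to 38.2 to 82.0 TPM in the other libraries. It was the highest library for 9 of the 24, and CSF1Ri replicate 1 for 5. The share of all genes that are highest in this library was not counted. Icam2, which leukocytes share, made up 70.4 TPM of that sum. The 23 markers without Icam2 summed to 46.9 TPM there, 39.2 TPM in CD40 agonist replicate 3, 41.3 TPM in CSF1Ri replicate 1 and no more than 31.4 TPM elsewhere. Cldn5, a junction protein, was at 2.35 TPM there and at no more than 1.35 TPM elsewhere, and Rgs5, a pericyte gene, at 25.6 TPM against no more than 1.41 TPM. Other markers of the list were low in this library: Selp was at 1.64 TPM (up to 10.7 TPM elsewhere), Ackr1 at 0.074 TPM (up to 4.36 TPM) and Adgrl4 at 0.081 TPM (up to 3.97 TPM). Cldn5 and these markers were chosen after their values were seen. The 10 pericyte and smooth muscle markers, led by Tagln (6.82 TPM) and Acta2 (6.58 TPM), summed to 57.6 TPM in this library and to 4.74 to 30.7 TPM in the others. Of the 10 endothelial members it was the highest library for 1, Pecam1, and it had 35 Cdh5, 0 Plvap, 0 Emcn and 0 Tek counts.

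Genes of other cells of a tumor digest were read as well. Fibroblast markers summed to 276 to 650 TPM, led by Fn1 (352 TPM), which macrophages also make, ahead of Dcn (12.4 TPM) and Col3a1 (9.89 TPM). Melanocyte and melanoma markers summed to 6.69 to 117 TPM, with Dct averaging 6.79 TPM, Mlana at 6.22 TPM and Gpnmb, also a macrophage gene, at 6.13 TPM. Beside Lyz2, the macrophage and monocyte list was led by Cd14 (1304 TPM) and Ly6c2 (885 TPM). In the pericyte, platelet, fibroblast, melanocyte and macrophage lists edgeR likewise called 0 genes in the 7 comparisons. The part of these cells in the values of the endothelial genes was not tested.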

How the data were processed

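RNA from pooled mouse melanomas was sequenced from unstranded libraries (50 ng of input, paired 75-bp reads), per the labels' protocols. STAR, HTSeq and DESeq2 on mm10 are named per the submitters' processing notes. The deposited tables instead hold, per the file headers, transcript lengths, estimated counts and TPM, and the sources used here do not name the quantifier. These estimated counts and TPM are values deposited by the authors. The mice's full genotype is left out.

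Of 111462 transcripts 110203 (98.9%) matched GENCODE M21 (GRCm38), and their values were summed per gene. Counts were rounded and fitted with edgeR 4.0.16 in R 4.3.3 (TMM, filterByExpr, robust quasi-likelihood, 1 term per group, 12 libraries, 16027 genes). The fit was also run on simulated counts, set with less spread than the common coefficient of variation of 61% fitted here. That run checks the code alone. Alternatives were DESeq2 1.42.0, limma 3.58.1 on counts (voom) and on log2(TPM + pseudocount), other scaling and filters, and each library left out. CPM are counts scaled to the library total after TMM; log2 CPM used a prior count of 2. A floor of 3 counts stands for a count of 0; with no molecular identifiers, PCR copies count as reads, so floors cover counting error only. Nothing in the labels places samples of a group in separate cages or on separate days, and the spread behind each p-value may be technical. The sources used here give no lane for a library.

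The 10 members and the 9 marker lists were chosen with earlier results of these data known. Genes named from a list are those called by edgeR or, failing any, its 3 with the highest mean TPM; the genes most like the members are the 5 with the highest correlation over 12 libraries. Genes named outside this rule are marked as such. Ccl21a has more than 1 gene ID in the annotation and was left out; BMP9 is listed under its symbol, Gdf2.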

Additional observations from a re-analysis of the deposited data

How the results depend on the processing

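Across 24 alternatives the count of endothelial genes called stayed at 0 in each of the 7 comparisons, except with DESeq2, which called 1 (Vwf) for the combination against the CD40 agonist and 1 (Vwf) for any difference among the 4 groups. Leaving out each library in turn gave 0 to 0 calls among the members. Of the fold changes of single members under an alternative, 1061 kept their direction and their side of the threshold, 1 (Vwf with DESeq2, -2.28) passed it and 71 changed sign without a call in either fit. Of these 71, 26 belonged to Flt1, 12 to Pecam1 and 10 to Plvap. Counts over all genes depend far more on the setting: 124 genes were called for the combination against Control, and 0 to 933 over the alternatives; for the combination against CSF1Ri the counts were 311 and 0 to 1484, for CSF1Ri against Control 2 and 0 to 408, for any difference 193 and 13 to 1671, for the combination against the CD40 agonist 0 and 0 to 275, for the CD40 agonist against Control 0 and 0 to 195 and for the interaction 0 and 0 to 172. In TPM with a pseudocount of 1 the median of all genes for the combination against Control shifted to -0.12, and to -0.197 with 0.1, and the genes called there were 87 higher and 148 lower, against 74 higher and 50 lower in CPM. With a replicate block the members called were 0 in all 7 comparisons, and Vwf stood at -2.38 (adjusted p = 0.362) for the combination against the CD40 agonist; libraries with the same number correlated at -0.061 to 0.06 in their deviations from group means, so the numbers do not pair them. With 10 and 8 counts in all, Emcn and Tek were read too little for a comparison between groups.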
